A study of Homo sapiens with 6 samples.

Results

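Cell cycle and proliferation genes were examined in MDA-MB231 cells, an established human triple-negative breast cancer cell line of mesenchymal character, comparing cells with a short hairpin RNA against the receptor ROR1 with control cells. The set was defined by gene symbol, and all 41 of its genes were found among the 57445 gene identifiers of the expression table. All 41 also passed the filter of at least 1 TPM in at least 3 libraries that left 16554 genes for testing. TPM (a gene's transcripts out of a fixed total) is an expression level corrected for transcript length and scaled to the same total in every library, so levels of different genes can be compared and the values of a library are shares of 1 whole. All values per library below are TPM, given for the 3 libraries of each group in turn.

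The 2 groups were shCTL and shRor1, each with 3 libraries of the same line. Both carried a pGIPZ lentiviral vector delivered at a multiplicity of infection of 5, and both were kept under puromycin at 2 µg/ml, so integration of a vector and drug selection were shared by the controls. shRor1 cells expressed a single hairpin against ROR1. The methods describe the shCTL hairpin as non-silencing, while the sample labels call the control an empty vector. The table's headers for the control columns also carry the word DMSO, which neither the labels nor the shRor1 headers do, so a solvent present in a single group cannot be told apart from the hairpin. The paper's methods describe selection with puromycin and mention neither pools nor clones. It was also not stated whether the libraries came from separate cultures, so p-values measure only the spread between these libraries. Libraries are numbered here by the order of the table's columns, which has no further meaning.

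ROR1, the target of the hairpin, was measured at 15.4, 13.5 and 20.6 in shCTL and 9.34, 11.9 and 14.8 in shRor1. The groups overlapped, and the log2 fold change was -0.43 (unadjusted p = 0.0649, adjusted p = 0.984, limma). The study reported a stable knockdown of Ror1 by western blot, which measures protein and not the mRNA given here. Of the markers of the line, VIM was high (mean 2565 TPM in shCTL), as were CD44 (447) and AXL (396), while ESR1 (0.117), PGR and CDH1 (0.8 to 1.47 over the 6 libraries) were at or near 0 and ERBB2 (29.4) and EPCAM (14.5) were detected. Markers of other cells were at or near 0 for PTPRC (0.17 TPM) and CD3E, with DCN at 1.08 and COL1A1 at 9.6. Read depth could not be recovered from TPM, and no counting interval is given for any value. In bulk RNA, fewer cells in a phase of the cycle and less RNA per cell cannot be told apart.

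Cells divide through an ordered series of phases driven by cyclin-dependent kinases (CDKs), whose cyclin partners are made and destroyed in turn. In G1, cyclin D with CDK4 or CDK6, and then cyclin E with CDK2, inactivate the retinoblastoma protein and free E2F factors, which switch on genes for DNA replication. In G2 and mitosis, a later wave of genes for CDK1 cyclins, mitotic kinases and spindle proteins is released from repression by the DREAM complex and driven by MYBL2 and FOXM1. In tumours these genes are widely read as a measure of the share of dividing cells.

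The promoters of the 2 waves differ in their known elements. E2F sites mark the earlier wave, and the cell cycle genes homology region (CHR), bound by DREAM, often with CCAAT boxes, bound by NF-Y, marks the later. The 250 bases before each annotated RefSeq start (assembly GRCh38.p14) were searched on both strands for the E2F-type words TTTCCCGC, TTTGGCGC, TTTCGCGC and TTTGCCGC, the CHR words TTTGAA and TTCGAA, and CCAAT. For 33 of the 41 genes the table used here held 43 promoter entries. Each was found at exactly 1 place on the gene's own chromosome in GRCh37, and other chromosomes were not searched. Some genes have several starts whose stretches overlap, as for AURKB, so shares over entries can count 1 element more than once. An E2F-type word was present in 9 of the 43 entries (20.9%), against 2.79% of all 35116 promoters of that length. CHR words were present in 12 (27.9% against 14.3%), CCAAT in 31 (72.1% against 32%) and both of the last in 11 (25.6% against 5.05%). Among the 8 entries of the licensing and MCM genes, 4 held an E2F-type word and 1 a CHR word, whereas among the 9 entries of mitotic kinase, checkpoint and motor genes none held an E2F-type word and 3 a CHR word. CCAAT was present in 6 of the former and 7 of the latter, so it did not separate these 2 groups. Of the 9 entries of the G2/M kinase and its activators, 1 held an E2F-type word and 4 a CHR word. A match is a description of letters and not of a bound site. The promoters of 4 genes are shown as examples of the elements of the earlier and the later wave, from 5′ to 3′ and ending at the base before the start, with matches to any of the words on either strand in capitals. In MCM6 (chr2:136634014-136634263, minus strand, GRCh37) the capitals of 12 letters are 2 overlapping E2F-type words, in CCNB2 (chr15:59397095-59397344, plus strand) a CHR word lies close to the start behind a row of CCAAT boxes, and CDC20 (chr1:43824402-43824651, plus strand) and TOP2A (chr17:38574149-38574398, minus strand) hold CHR words and CCAAT boxes together. MCM6 also holds 1 CHR word, far from the start, and 2 CCAAT boxes, so its elements are not those of the earlier wave alone.
MCM6: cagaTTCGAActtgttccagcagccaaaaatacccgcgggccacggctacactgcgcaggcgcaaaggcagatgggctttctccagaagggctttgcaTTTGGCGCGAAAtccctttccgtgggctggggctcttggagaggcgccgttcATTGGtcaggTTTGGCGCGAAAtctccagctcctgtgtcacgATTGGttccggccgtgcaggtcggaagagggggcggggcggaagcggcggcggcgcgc
CCNB2: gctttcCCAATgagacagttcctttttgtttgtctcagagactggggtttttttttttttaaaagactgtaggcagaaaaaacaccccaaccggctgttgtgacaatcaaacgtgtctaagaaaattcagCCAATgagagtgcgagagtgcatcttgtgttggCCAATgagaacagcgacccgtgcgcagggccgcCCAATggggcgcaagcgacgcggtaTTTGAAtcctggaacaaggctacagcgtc
CDC20: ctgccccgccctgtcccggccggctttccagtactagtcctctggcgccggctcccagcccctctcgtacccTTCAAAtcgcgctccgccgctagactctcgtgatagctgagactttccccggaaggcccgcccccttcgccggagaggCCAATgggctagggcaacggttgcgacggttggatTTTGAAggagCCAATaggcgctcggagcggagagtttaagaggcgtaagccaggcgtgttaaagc
TOP2A: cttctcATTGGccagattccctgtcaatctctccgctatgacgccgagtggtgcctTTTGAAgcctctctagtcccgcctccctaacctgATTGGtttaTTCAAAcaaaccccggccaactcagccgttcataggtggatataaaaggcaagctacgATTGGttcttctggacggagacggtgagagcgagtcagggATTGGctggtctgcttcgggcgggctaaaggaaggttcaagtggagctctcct

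The genes were strongly expressed in both groups. In shCTL, 25 of the 41 had a mean above 100 TPM, and 25 ranked above the 90th percentile of all genes tested. The highest mean levels were those of TYMS, which makes thymidylate for DNA (456 TPM), CDK4 (411 TPM), the ribonucleotide reductase subunit RRM2 (400.2 TPM), UBE2C, a ubiquitin-conjugating enzyme of mitotic exit (379 TPM), CCNB1 (349 TPM) and TOP2A (347 TPM). The 5 genes below 30 TPM were CCNE1 (12.2), CDC25C (18.7), CDKN1A (21.2), CDK6 (25.99) and CDC25A (26.9), among which are a cyclin, a CDK inhibitor and 2 phosphatases that activate CDKs. From CCNE1 to TYMS the level spanned 37.5-fold. In the order by level, 25 of the 40 neighbouring pairs overlapped in their shCTL values, so the order holds only between more distant genes.

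**Figure D1:**
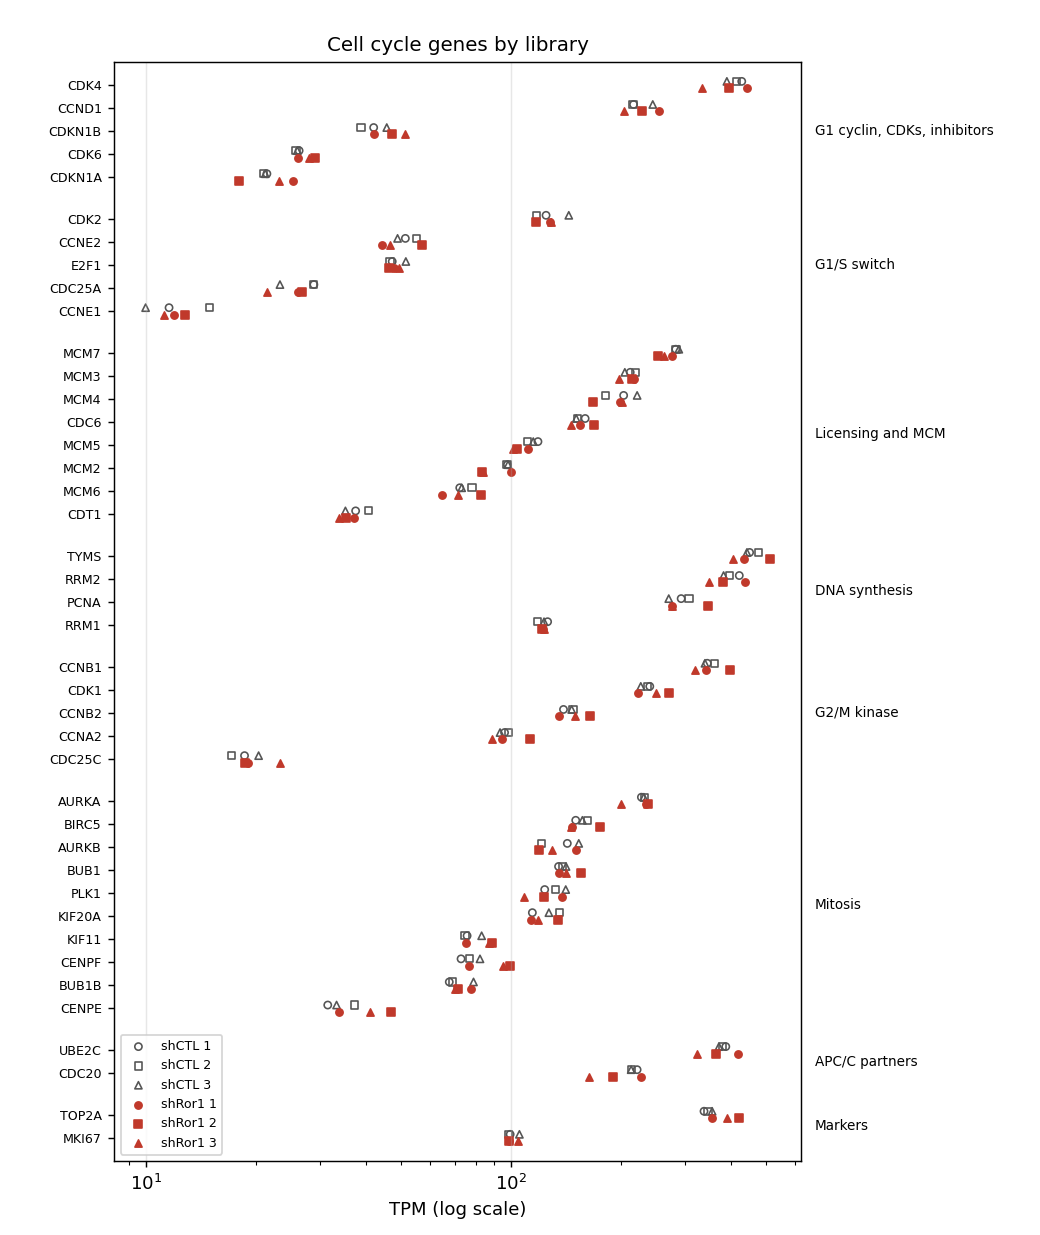
TPM of the 41 cell cycle genes in each of the 6 libraries, on a log axis, grouped by role and ordered by shCTL level within each group. Open grey symbols are shCTL and filled red symbols shRor1 libraries. The genes span 37.5-fold in level, whereas the shCTL and shRor1 symbols of each gene lie close together and overlap for all genes but MCM7.

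The comparison of shRor1 with shCTL asks whether the hairpin against ROR1 moved the expression of these genes. No gene of the set passed the test: 0 of 41 had an adjusted p below 0.05 in limma, as did 0% of all genes tested, and 0 of 41 had an unadjusted p below 0.05, against 2.85% of all genes tested. With a count test in edgeR, the study reported only AGR2 and an uncharacterized gene as significant, neither of them in this set. Fold changes were small, with a median log2 value of -0.0069 and a range from -0.17 for CDC20 to 0.24 for CENPE, and 30 of the 41 lay within 0.1 of zero. The median over all genes tested was 0.054. A positive value was seen for 17 of the 41 (41.5%) against 67% of all genes tested. That split depends on scaling, since 8 of 41 (19.5%) were positive against 50.2% of all genes with median ratio scaling, and 15 (36.6%) against 50.5% with quantile normalization. With transcript length and GC trends removed, a setting chosen after the data were seen, 8 (19.5%) were positive against 47.6%. The split also rests on single libraries: without the third shRor1 library 25 of 41 (61%) were positive against 58.7% of all genes, which turns the difference, and without the second shCTL library 21 (51.2%) against 59.6%.

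The 95% intervals bound how large a difference these libraries leave room for. For all 41 genes the interval lay within a 1.5-fold difference either way, which held for 79.2% of all genes tested. The lowest bound was a ratio of 0.739 (CDC20) and the highest 1.46 (CENPE). Adjusted p-values ran from 0.984 to 0.998. At the unadjusted level the count depended on 1 library, in the set and in the whole table alike. Leaving out the first shRor1 library gave 6 of the 41 genes an unadjusted p below 0.05. They were CDC20, CENPE, CENPF, MCM2, MCM5 and TOP2A, and again 0 passed the adjusted threshold. Among all genes tested the share rose from 2.85% to 10.4% in the same fit. In the full data the values of the 2 groups did not overlap for 1 of the 41 genes, MCM7, against 7.78% of all genes tested. With the first shRor1 library left out these became 15 of the 41 and 29.3%, so this rise too was shared by the whole table.

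**Figure D2:**
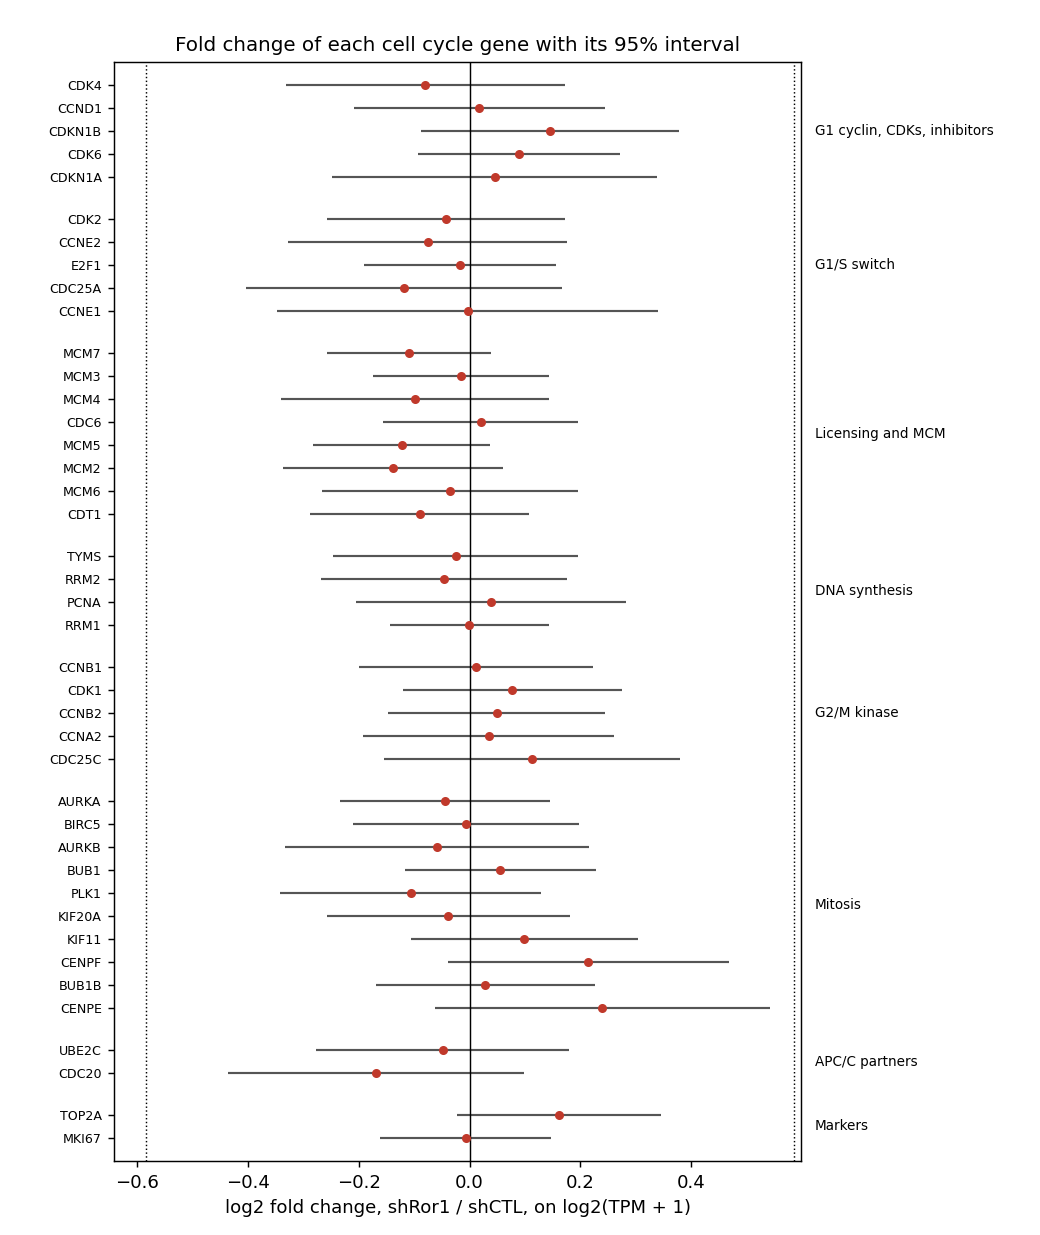
Log2 fold change of shRor1 over shCTL on the log2(TPM + 1) scale for each of the 41 genes (red points) with its 95% interval from limma (grey lines), grouped by role. Dotted lines mark 1.5-fold in either direction, and all 41 intervals include 0 and end inside these lines.

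The G1 genes comprise cyclin D1 (CCND1), its kinases CDK4 and CDK6, and the inhibitors CDKN1A (p21) and CDKN1B (p27), and 4 of these 5 had a positive and 1 a negative log2 fold change (2 and 3 with median ratio scaling, where CCND1 and CDKN1A turned negative). The counts of direction here and in the groups below stand beside 67% of all genes tested with a positive value, and 50.2% with median ratio scaling. CCND1, the mitogen-responsive cyclin, was measured at 217, 216 and 244 in shCTL and 254, 228 and 204 in shRor1. CDK4, the highest of the group, stood at 429, 414 and 390.2 in shCTL and 444, 395 and 334 in shRor1. For both, the first shRor1 library was the highest and the third the lowest of the 6, and the fold changes were 0.017 (-0.21 to 0.24) for CCND1 and -0.080 (-0.33 to 0.17) for CDK4, the ranges being 95% intervals here and below. CDK6 was present at far lower levels, and the ratio of CDK4 to CDK6 was 15.8 ± 0.688 in shCTL and 14.2 ± 2.58 in shRor1 (SD, n = 3). CDKN1A, an inhibitor induced by p53, was measured at 21.4, 20.9 and 21.2 in shCTL and 25.2, 18 and 23.1 in shRor1, the lowest level in the group. The shCTL values lay within a narrow range, and shRor1 held both the highest and the lowest value (log2 fold change 0.045, -0.25 to 0.34). CDKN1B, which holds cyclin E and CDK2 inactive in resting cells, had 42.03, 38.8 and 45.6 in shCTL and 42.04, 47.2 and 51.1 in shRor1. Its groups overlapped (log2 fold change 0.15, -0.087 to 0.38, limma unadjusted p = 0.186).

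At the G1/S switch, all 5 genes had a negative log2 fold change, from -0.12 for CDC25A, the phosphatase that activates CDK2, to -0.0035 for CCNE1, as they had with quantile normalization and with median ratio scaling, and none had an unadjusted p below 0.364. When single libraries were left out, CCNE1, CDK2 and E2F1 turned positive in some fits, with ranges given at the end. CDK2, the kinase of the group and its highest member, was measured at 125, 117 and 144 in shCTL and 128, 117 and 129 in shRor1. CCNE1, cyclin E1, was the lowest at 11.6, 14.9 and 9.97 in shCTL and 11.9, 12.8 and 11.2 in shRor1, and the 3 shCTL values lay further apart than those of shRor1. Its paralogue CCNE2 was the more abundant, with a ratio of CCNE2 to CCNE1 of 4.34 ± 0.613 in shCTL and 4.11 ± 0.378 in shRor1 (SD, n = 3). E2F1, the transcription factor that activates replication genes and its own promoter, stood at 47.2, 46.6 and 51.5 in shCTL and 47.8, 46.4 and 49.4 in shRor1. These values interleaved, and the fold change was -0.017 (-0.19 to 0.16).

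Origin licensing loads the MCM2 to MCM7 helicase onto DNA with the help of CDC6 and CDT1. Of these 8 genes, 7 had a negative log2 fold change and CDC6 a positive one (0.020), which turned negative with median ratio scaling. The median was -0.094, and -0.15 with median ratio scaling. MCM7 (chr7:99689856-99699563, minus strand, GRCh37) was the most abundant, at 283, 283 and 288 in shCTL and 276, 253 and 262 in shRor1. All 3 shRor1 values lay below all 3 shCTL values, at 285 ± 3.11 against 264 ± 11.5 TPM (SD, n = 3), the exact permutation p was 0.1, the smallest that 3 against 3 libraries allow, and the log2 fold change was -0.11 (-0.26 to 0.038). With length and GC trends removed the groups of MCM7 overlapped. MCM5 (chr22:35796127-35821424, plus strand) was measured at 118, 111 and 115 in shCTL and 111, 104 and 102 in shRor1. The lowest shCTL and the highest shRor1 value just overlapped, and the fold change was -0.12 (-0.28 to 0.037, limma unadjusted p = 0.114). MCM2 had 97.8, 97.4 and 98.1 in shCTL and 99.8, 83.3 and 83.9 in shRor1, where the second and the third shRor1 library were low and the first was the highest of all 6. CDT1, the loading factor held in check by geminin, was the lowest of the group at 37.5, 40.8 and 35.2 in shCTL and 37.1, 35.4 and 33.8 in shRor1. The 6 helicase subunits, which act as a ring with 1 copy of each, were unequal at the mRNA level in each library: MCM7 was always the highest and MCM6 the lowest, with a ratio from 3.06 to 4.26. Summed over the 8 genes, the level was 98.3, 94.2 and 93.2% of the shCTL mean in the 3 shRor1 libraries, against 98.7 to 101% in the shCTL libraries.

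DNA synthesis was represented by the polymerase clamp PCNA, the ribonucleotide reductase subunits RRM1 and RRM2, and TYMS. One of the 4 had a positive log2 fold change (PCNA, 0.038, negative with median ratio scaling) and 3 a negative one. TYMS, the most abundant of the 41 genes, was measured at 450.4, 476 and 443 in shCTL and 435, 511 and 406 in shRor1. Its second shRor1 library was the highest of the 6 and the third the lowest. RRM1, the large subunit, was the steadiest of the set in shRor1, at 126, 118 and 123 in shCTL and 122, 122 and 123 in shRor1, with a fold change of -0.00051 (-0.14 to 0.14). The regulated subunit RRM2 exceeded RRM1 by a factor of 3.27 ± 0.143 in shCTL and 3.18 ± 0.381 in shRor1 (SD, n = 3).

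For entry into mitosis, CDK1 pairs with cyclins A2, B1 and B2 (CCNA2, CCNB1, CCNB2) and is activated by CDC25C, and all 5 genes had a positive log2 fold change, from 0.011 for CCNB1 to 0.11 for CDC25C. Of all genes tested, 67% were positive, and 50.2% with median ratio scaling. With that scaling, CCNA2, CCNB1 and CCNB2 turned negative. CCNB1, the highest, had 345, 361 and 339.8 in shCTL and 341, 397 and 319.6 in shRor1. The second shRor1 library was the highest of the 6, as it was for 4 of the 5 genes, and the other 2 shRor1 libraries of CCNB1 lay within or below the shCTL range. For CDK1 (249) and CCNB2 (150) the third shRor1 library also lay above the shCTL range. CDC25C, the lowest, had 18.6, 17.1 and 20.3 in shCTL and 19.03, 18.7 and 23.3 in shRor1, and there the third shRor1 library was the highest.

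The mitotic kinases, checkpoint proteins, kinetochore proteins and motors were divided, with 5 of 10 log2 fold changes positive and 5 negative (4 and 6 with quantile normalization, 3 and 7 with median ratio scaling). The 2 largest positive values of the whole set were those of the kinetochore proteins CENPE, a kinesin that helps chromosomes align, and CENPF. CENPE (chr4:104026506-104119602, minus strand), also the lowest gene of the group, was measured at 31.5, 37.3 and 33.3 in shCTL and 33.7, 46.97 and 41.05 in shRor1. The second and the third shRor1 library lay above all shCTL values and the first among them, with a fold change of 0.24 (-0.063 to 0.54, limma unadjusted p = 0.104). CENPF (chr1:214776528-214837917, plus strand) had 72.9, 76.96 and 82.2 in shCTL and 76.6, 99.5 and 94.97 in shRor1. The same 2 libraries were high, and the fold change was 0.21 (-0.040 to 0.47, limma unadjusted p = 0.087). AURKA, a spindle pole kinase and the highest of the group, stood at 228, 232 and 231 in shCTL and 234, 238 and 200.2 in shRor1, where the third shRor1 library was the lowest of the 6. The remaining 7, which include AURKB and BIRC5 of the chromosomal passenger complex, the kinase PLK1, the checkpoint kinases BUB1 and BUB1B and the motors KIF11 and KIF20A, had log2 fold changes from -0.11 (PLK1) to 0.098 (KIF11).

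CDC20 activates the anaphase-promoting complex, and UBE2C hands ubiquitin to its substrates. CDC20 (chr1:43824652-43828874, plus strand) was measured at 221, 214 and 213 in shCTL and 227, 191 and 164 in shRor1, the largest negative difference of the set. Its first shRor1 library was the highest of the 6 and the others the lowest, and the fold change was -0.17 (-0.44 to 0.099, limma unadjusted p = 0.182). UBE2C had 388, 379 and 371 in shCTL and 419, 364 and 324 in shRor1, with the same order of the shRor1 libraries and a fold change of -0.048 (-0.28 to 0.18). The ratio of UBE2C to CDC20 within a library was 1.75, 1.78 and 1.74 in shCTL and 1.84, 1.91 and 1.98 in shRor1, and these values did not overlap. It was 1 of 10 ratios computed, none of them tested, and the ratio of TOP2A to MKI67 did not overlap either, at 3.40, 3.51 and 3.37 in shCTL and 3.60, 4.26 and 3.73 in shRor1. The pairs were not chosen by a rule set beforehand. No share over other pairs of genes was computed to stand beside them, so no result is read from the ratios.

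Of the proliferation markers, TOP2A, the topoisomerase that disentangles replicated DNA, had the smallest p of the set in the fit to TPM as deposited, and MKI67, the gene of the Ki-67 antigen, had 1 of the smallest differences. TOP2A (chr17:38544777-38574148, minus strand) was measured at 338, 346 and 356 in shCTL and 355, 421 and 390.0 in shRor1. The first shRor1 library lay within the shCTL range and the other 2 lay above it, at 347 ± 8.89 against 389 ± 33.2 TPM (SD, n = 3), with a log2 fold change of 0.16 (-0.023 to 0.35) and a limma adjusted p of 0.984 (unadjusted p = 0.078). With median ratio scaling its log2 fold change was 0.10 (limma unadjusted p = 0.284), and MCM7 had the smallest p. MKI67 had 99.4, 98.6 and 105 in shCTL and 98.4, 98.9 and 105 in shRor1. The groups interleaved, and the interval of its fold change (-0.0069, -0.16 to 0.15) was among the narrower ones. With median ratio scaling and with length and GC trends removed, its groups did not overlap, shRor1 being lower, and the log2 fold changes were -0.067 and -0.087.

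**Figure D3:**
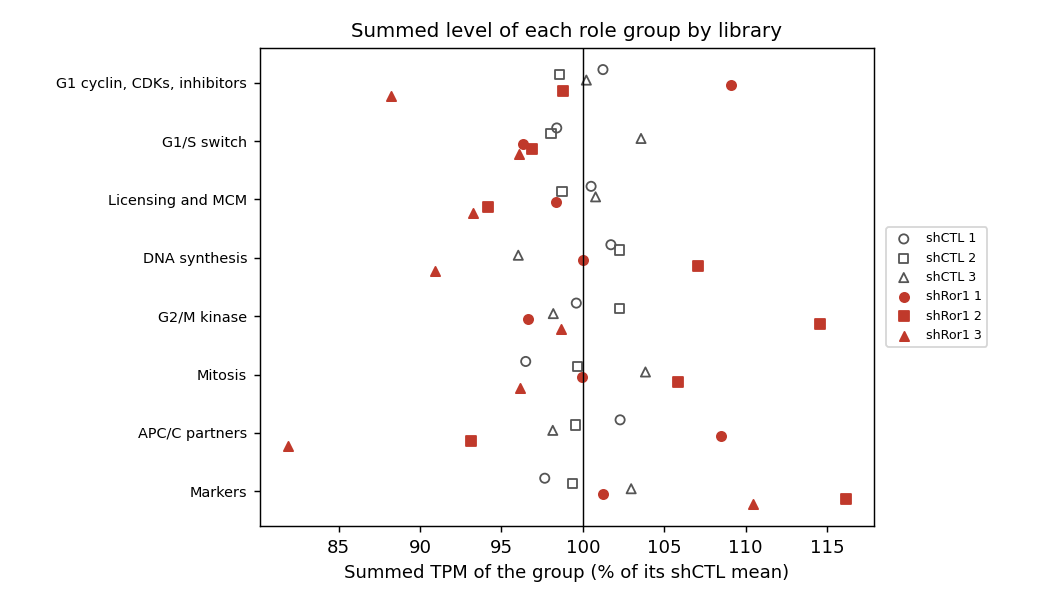
Summed TPM of each role group in each library, as a percentage of the mean of that group's sum over the 3 shCTL libraries. Open grey symbols are shCTL and filled red symbols shRor1 libraries. The shCTL libraries stay within a few percent of 100, while the shRor1 libraries spread from 81.9% (anaphase-promoting complex partners, the third library) to 116% (proliferation markers, the second library).

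For most of these genes the shRor1 libraries differed more from each other than the shCTL libraries did. The median coefficient of variation of the 41 genes was 4.21% in shCTL and 10.0% in shRor1, against 9.89% and 12.6% over all genes tested, and the SD was larger in shRor1 for 31 of the 41 genes (75.6%, against 66.7% of all genes tested). The second shRor1 library held the highest value for 17 of the 41 genes (20.6% of all genes tested had their highest value there), and the third held the lowest for 16 (12.9%). The first shRor1 library lay within the shCTL range for 24 of 41 genes (58.5%, against 59% of all genes tested). In the second library 18 genes lay above that range and 12 below (43.9 and 29.3%, against 34.1 and 22.6% of all genes tested). In the third library 10 lay above and 20 below (24.4 and 48.8%, against 47.4 and 17.6%). Summed over the 41 genes, the share of all TPM was 0.650, 0.652 and 0.651% in shCTL and 0.657, 0.674 and 0.610% in shRor1. The shRor1 shares thus lay on both sides of shCTL. In the third library the median log2 deviation from the shCTL mean was -0.080 over the 41 genes and 0.11 over all genes tested.

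**Figure D4:**
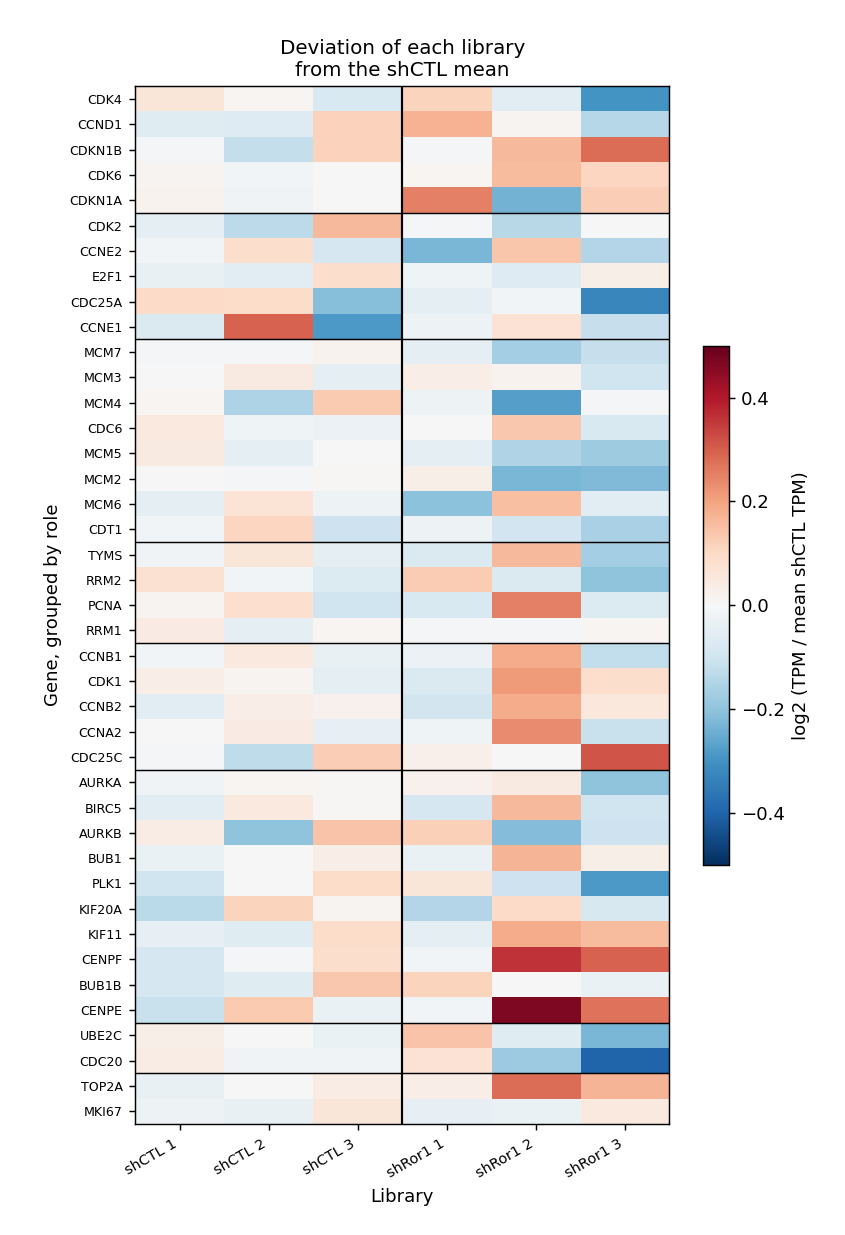
Log2 ratio of each library's TPM to the shCTL mean for the 41 genes (rows, grouped by role with black lines between groups) in the 6 libraries (columns), red for higher and blue for lower. The second and the third shRor1 columns hold the strongest colours, with CENPE at 0.47 in the second and CDC20 at -0.40 in the third, while the first shRor1 column resembles shCTL.

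Base composition of the transcripts moved with these deviations. Across the 41 genes, the log2 deviation of the second shRor1 library from the shCTL mean had a Spearman correlation of -0.75 with the GC content of the canonical transcript, and that of the third library -0.49, whereas the first gave 0.24. Over the 15066 tested genes with a known GC content the same correlations were -0.35, -0.045 and 0.10. The shCTL libraries had such trends over all genes too, with correlations of -0.17, -0.22 and 0.28 in turn. Across the 41 genes theirs were 0.16, -0.11 and 0.020. The points of each correlation share 1 library and 1 control mean, and no test was made. The 20 genes with a GC content below 47.7% had a median log2 deviation of 0.16 in the second library and the other 21 a median of -0.061. Examples were CENPE (35.1% GC, 0.47), TOP2A (38.9%, 0.28), MCM2 (57.4%, -0.23) and CDC20 (56.9%, -0.18). After length and GC trends were removed from each library, TOP2A (higher in shRor1) and MKI67 (lower) were the genes without overlap and MCM7 was not. In that setting the log2 fold change was 0.14 for CENPE, 0.12 for CENPF and 0.075 for TOP2A, and -0.20 for CDC20, -0.18 for MCM2 and -0.15 for MCM7. GC content also differed between the role groups of the set. Their medians ran from 41.9% for the G2/M kinase and its activators to 54.0% for the anaphase-promoting complex partners. They were 43.8% for the mitotic kinase, checkpoint and motor genes and 53.8% for the licensing and MCM genes. The parts of base composition and of role in the differences were not tested further.

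**Figure D5:**
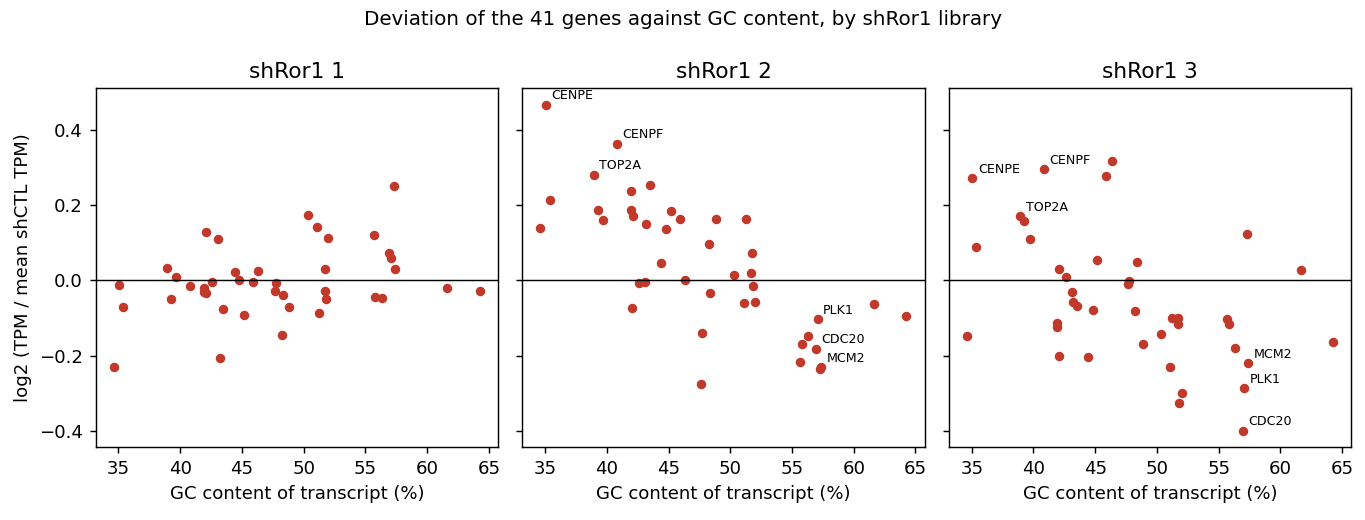
Log2 ratio of TPM to the shCTL mean against the GC content of the canonical transcript for the 41 genes, 1 panel for each shRor1 library. The points slope downwards in the second library (Spearman -0.75) and less so in the third (-0.49), and lie around 0 in the first (0.24).

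Other genes of the cycle, taken from lists of phase genes and regulators, gave 0 genes with an unadjusted p below 0.05 in any of the 5 lists, against 2.85% of all genes tested. The directions in these lists stand beside 67% of all genes tested with a positive value. That share was 50.5% with quantile normalization and 50.2% with median ratio scaling. Of 32 other S phase genes tested, 20 had a positive and 12 a negative log2 fold change (median 0.036), and with median ratio scaling 11 and 21. The smallest p-values were those of GINS2, a subunit of the replicative helicase (-0.14, limma unadjusted p = 0.15), and CASP8AP2 (0.18). E2F8, a repressor of the E2F family, was lower in all 3 shRor1 libraries, at 21.03, 20.2 and 20.5 in shCTL and 19.1, 19.7 and 19.2 in shRor1, and is named for that after its values were seen. Of 40 other G2 and M phase genes, 27 were positive and 13 negative (median 0.028), and with median ratio scaling 15 and 25. TUBB4B, a beta-tubulin, had 679.8, 708 and 695 in shCTL and 669.8, 621 and 591 in shRor1, and its groups did not overlap (log2 fold change -0.15, -0.31 to 0.019). G2E3, a ubiquitin ligase, did not overlap in the other direction, at 39.7, 38.6 and 37.5 in shCTL and 41.3, 50.5 and 40.7 in shRor1 (log2 fold change 0.18, -0.046 to 0.41), nor did CKAP2L (0.13) and CKAP5 (0.091), both spindle proteins named after their values were seen. That made 4 of 40 genes without overlap, beside the 7.78% of all genes tested.

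Among other cyclins, CDK inhibitors and phase regulators, 14 of 17 passed the filter, and 11 of these had a positive and 3 a negative log2 fold change (5 and 9 with quantile normalization, 6 and 8 with median ratio scaling). SKP2, the ubiquitin ligase subunit that marks p27 for destruction, had a log2 fold change of -0.11 (-0.31 to 0.090), and the checkpoint kinase CHEK2 one of 0.15 (-0.14 to 0.45). CDKN2A and CDKN2B, neighbouring genes for inhibitors of CDK4 and CDK6, were listed at 0 in all 6 libraries, and CCND2, cyclin D2, averaged 0.107 TPM in shCTL and 0.123 TPM in shRor1 and is named after its values were seen. Cyclin D1 was the most abundant D-type cyclin mRNA, with a ratio of CCND1 to CCND3 of 3.53 ± 0.15 in shCTL and 3.61 ± 0.475 in shRor1 (SD, n = 3).

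Of the 18 RB, E2F, DREAM and mitotic transcription factor genes, 11 were positive and 7 negative (median 0.017), against 5 and 13 with quantile normalization and 4 and 14 with median ratio scaling. MYBL2, which drives the G2 and M phase wave, had 173, 181 and 174 in shCTL and 175, 153 and 140.2 in shRor1. The first shRor1 library lay within the shCTL range and the other 2 below it (log2 fold change -0.18, -0.39 to 0.036, limma unadjusted p = 0.0909). RBL2 (p130), the pocket protein of DREAM in resting cells, had 10.03, 13.1 and 14.1 in shCTL and 11.4, 16.7 and 19.1 in shRor1, with a wide interval (0.31, -0.16 to 0.77). Among 16 p53 target genes, 11 were positive and 5 negative (median 0.047), against 5 and 11 with quantile normalization and 8 and 8 with median ratio scaling. The smallest p-values there belonged to TNFRSF10B, a death receptor (0.13, limma unadjusted p = 0.155), and DDB2, a DNA damage sensor, came next by the rule used for naming. DDB2 was higher in all 3 shRor1 libraries, at 10.04, 9.18 and 10.4 in shCTL and 11.01, 10.7 and 10.6 in shRor1 (log2 fold change 0.11, -0.11 to 0.34).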

How the data were processed

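Polyadenylated RNA per the labels (a total RNA kit per the methods) was read from 1 end over 50 bases. The authors processed the reads with CASAVA 1.8.2 and FastQC 0.10.0, mapped them to GRCh37 with STAR and estimated abundances with RSEM 1.2.5. The deposited table, named for expected counts, holds TPM per gene (every column has the same sum), so the authors' edgeR count test could not be repeated. Genes reaching 1 TPM in 3 or more libraries were fitted as log2(TPM + 1) with limma 3.58.1 in R 4.3.3 (condition only, mean-variance trend, two-sided, Benjamini-Hochberg over 16554 genes). For single genes, the exact permutation test (two-sided, 3 against 3) cannot go below 0.1. The fit was tested on simulated data, where most log2 changes of 1 passed the adjusted threshold and almost none of the smaller size tried. Values are given per library for the highest and lowest gene of each role group, the 5 smallest p, non-overlapping groups, and CDKN1A, CDKN1B, CCND1, MKI67, TOP2A and E2F1. MCM2 is given outside this rule. From other lists, the 2 genes with the smallest p and genes under 0.1 TPM are named, some of them by fold change alone. Genes named there after their values were seen are marked as such. The genes and lists were chosen with earlier results of these data known. Gene symbols and coordinates (GENCODE on GRCh37) matched 55022 of 57445 identifiers, and PECAM1 and UHRF1 were not analysed here. Alternatives were another pseudocount, other filters, scalings and variance models, summing by symbol, and leaving out each library.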

Additional observations from a re-analysis of the deposited data

How the results depend on the processing

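In none of the 17 alternative settings did a gene of the set pass the adjusted threshold (smallest adjusted p 0.44), and in 16 of the 41 genes the direction was the same in all of them. Array weights gave 2 genes with an unadjusted p below 0.05 (CENPF and TOP2A), against 5.19% of all genes. The median log2 fold change became -0.0193 with quantile normalization, -0.0673 with median ratio scaling and -0.0687 with length and GC trends removed (chosen after the data were seen), and the number of genes whose groups did not overlap became 2 (MCM5, MCM7), 4 (E2F1, MCM5, MCM7, MKI67) and 2 (TOP2A, MKI67, without MCM7), against 6.47, 6.78 and 6.6% of all genes. Leaving out each library gave a median from -0.0349 to 0.0288, 2 to 15 genes without overlap (13 to 29.3% of all genes), 0 to 6 genes with an unadjusted p below 0.05 (1.68 to 10.4% of all genes, with 6 without the first shRor1 library) and 0 to 1 of all genes past the adjusted threshold (1 without the third shRor1 library). The cause was not tested. No paired analysis was possible because replicate numbers are not given in the headers of the table.

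The 25 genes that changed direction somewhere all had fold changes below 0.09 in size. Quantile normalization gave -0.0119 for CDKN1A and -0.000624 for BUB1B. Median ratio scaling gave -0.0433 for CCND1, -0.0134 for CDKN1A, -0.0409 for CDC6, -0.0224 for PCNA, -0.0259 for CCNA2, -0.0495 for CCNB1, -0.012 for CCNB2, -0.00489 for BUB1 and -0.0321 for BUB1B. Array weights gave -0.00338 for CDKN1A, 0.00111 for TYMS, 0.0298 for BIRC5, 0.00273 for KIF20A and 0.00345 for MKI67. Removing length and GC trends gave -0.043 for CCND1, -0.00614 for CDK6, -0.052 for CDC6, -0.0168 for PCNA, -0.035 for CCNA2, -0.0537 for CCNB1, -0.00573 for CCNB2, -0.0182 for BUB1 and -0.0437 for BUB1B. Leaving out each library gave log2 fold changes of -0.0614 to 0.0959 (CCND1), -0.0252 to 0.0200 (RRM1), -0.0138 to 0.0963 (BUB1B), -0.126 to 0.143 (CCNE1), -0.0394 to 0.0259 (MCM3), -0.119 to 0.047 (TYMS), -0.0913 to 0.0393 (BIRC5), -0.108 to 0.0182 (KIF20A), -0.106 to 0.0401 (CDK2), -0.0435 to 0.0268 (E2F1), -0.0691 to 0.0941 (PCNA), -0.0767 to 0.079 (CCNB1), -0.155 to 0.0159 (AURKB), -0.0348 to 0.0229 (MKI67), -0.0532 to 0.179 (CDKN1A), -0.129 to 0.0464 (MCM6), -0.0379 to 0.0682 (CDC6), -0.0653 to 0.107 (CCNA2), -0.0185 to 0.118 (CCNB2), -0.0011 to 0.10001 (BUB1), -0.177 to 0.0283 (CDK4), -0.135 to 0.0288 (RRM2), -0.0889 to 0.0343 (AURKA) and -0.144 to 0.0412 (UBE2C).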
